A study of Mus musculus with 6 samples.

Results

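Hepcidin and the proteins that carry, import, export, store and sense iron are described here in mouse liver through 10 genes: Hamp, Hamp2, Slc40a1, Tfr2, Hfe, Bmp6, Tfrc, Trf, Fth1 and Ftl1. The genes were chosen by name, with earlier results of these data known. Their rows were found in the deposited gene table by Ensembl identifier, so that 10 of its 56305 genes are described. Total liver RNA was sequenced from 3 WT and 3 Vps15LKO mice. The Vps15LKO mice were AlbCre+;Vps15f/f, and thus lacked Vps15, a regulatory subunit of class 3 PI3K encoded by Pik3r4, in the cells in which the albumin promoter drives Cre, that is, in hepatocytes. The study's methods give the mice of both groups as males, 5 weeks old, fed ad libitum, with livers collected at ZT6 (6 h after lights on); whether the WT mice carried floxed alleles or Cre is not given in the sources used here. The comparison between the 2 genotypes asks how the loss of Vps15 in hepatocytes changes liver transcripts at that hour.

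The liver sets the iron balance of the body. Hepatocytes secrete hepcidin, the peptide encoded by Hamp, which binds the iron exporter ferroportin (Slc40a1) on macrophages, gut cells and hepatocytes and causes its degradation. Iron loading raises hepcidin transcription through BMP6, which is made by liver endothelial cells and signals to SMAD proteins in hepatocytes, with HFE and transferrin receptor 2 as partners, and inflammation raises it through IL-6 and STAT3. Inside cells, iron regulatory proteins bind short RNA hairpins called iron-responsive elements: when iron is low, they block the translation of ferritin and ferroportin and protect the transferrin receptor mRNA from decay.

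The 2 hepcidin genes lie near each other on chromosome 7, on the minus strand: Hamp at chr7:30942368-30944032 and Hamp2 at chr7:30922372-30924681 (GRCm38, GENCODE M21). The 150 bases before the RefSeq transcription start of each gene (GRCm38.p6, chr7:30944030-30944179 and chr7:30924182-30924331) are printed to show the elements through which the 2 known signals reach hepcidin. Capitals mark GGCGCC, the core of a BMP-responsive element, and TTCNNNGAA, a STAT site.
Hamp: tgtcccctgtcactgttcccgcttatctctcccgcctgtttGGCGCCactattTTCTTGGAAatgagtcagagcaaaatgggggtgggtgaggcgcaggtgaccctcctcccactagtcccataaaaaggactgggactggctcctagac
Hamp2: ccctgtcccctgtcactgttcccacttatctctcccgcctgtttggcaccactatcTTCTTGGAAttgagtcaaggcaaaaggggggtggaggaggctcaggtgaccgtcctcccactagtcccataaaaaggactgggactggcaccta
The windows were 91.8% identical over 147 aligned bases. Hamp held GGCGCC at positions -109 to -104 from the start and TTCNNNGAA at -97 to -89, while Hamp2 held only TTCNNNGAA, at -94 to -86. Searched on both strands in the 250 bases before each start, GGCGCC was present in 9.59% and TTCNNNGAA in 7.02% of 32851 mouse promoters, and 8 of the 10 genes had a promoter in that table. Among the other members searched, GGCGCC was also present in the Tfrc promoter, at -89 to -84. The 2 motifs did not overlap each other in Hamp.

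Iron-responsive elements were searched for in the untranslated regions of the annotated transcripts as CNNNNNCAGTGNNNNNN with all 5 base pairs of the stem formed, G-T pairs allowed. Of the 10 genes, 4 had a match, and these are shown, on the sense strand, with the loop in capitals and 5 bases on either side. Fth1 (chr19:9982733-9982759, plus strand), Ftl1 (chr7:45459780-45459806, minus strand) and Slc40a1 (chr1:45925466-45925492, minus strand) each held a match in the 5′ UTR. Tfrc held 4 matches in the 3′ UTR on the plus strand, at chr16:32631220-32631246, chr16:32631599-32631625, chr16:32631664-32631690 and chr16:32631711-32631737.
Fth1: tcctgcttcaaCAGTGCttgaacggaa
Ftl1: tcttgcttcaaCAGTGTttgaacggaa
Slc40a1: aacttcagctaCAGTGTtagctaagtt
Tfrc, nearest the coding sequence: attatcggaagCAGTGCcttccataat
Tfrc, next: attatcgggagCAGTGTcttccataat
Tfrc, next: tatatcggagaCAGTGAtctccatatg
Tfrc, farthest: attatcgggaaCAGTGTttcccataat
Across the genome, 28 of 20561 coding genes (0.136%) had such a match in a 5′ UTR and 127 of 20954 (0.606%) in a 3′ UTR. A match to these letters is a description of the transcript, and iron regulatory protein binding was not measured.

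The gene table gives counts divided by a size factor for each library, here called normalized counts. The 6 libraries held between 16137093 and 18110223 reads on genes, but the size factors were 0.742 to 0.801 in WT and 1.23 to 1.41 in Vps15LKO livers. With libraries scaled to total reads instead, the median log2 fold change over the tested genes was 0.721 higher, so each result is given relative to the size factors and the direction under total-read scaling is added where it changed. Differences were tested with limma over the 15430 genes that reached 20 normalized counts in 3 or more livers. A gene was called where the Benjamini-Hochberg adjusted p was below 0.05 and the change was 1.2-fold or larger. Each liver came from a separate mouse, and the study bred both genotypes within litters, but which livers shared a litter is not given in the sources used here. The limma p-values draw on the spread between these 6 livers and on a variance fitted to expression level over all tested genes. A gene that was not called, such as the abundant Trf, thus need not have varied widely between livers. Pik3r4 itself was read at 508, 573 and 460 normalized counts in WT and at 341, 362 and 355 in Vps15LKO livers, a log2 fold change of -0.54 (limma adjusted p = 0.00207) that turned to 0.19 and was not called under total-read scaling. The count covers all exons of the gene and all cells of the liver, including those in which the albumin promoter is silent. For Vps15f/f fibroblasts given Cre, the paper describes the deletion of a single exon and the expression of a truncated Vps15 protein.

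All 10 genes passed the filter on low values. Tfrc and Fth1 were called higher in Vps15LKO livers, Hamp, Hamp2 and Tfr2 were called lower, and the other 5 were not called. Over all tested genes 66.5% were called, 33.5% higher and 33% lower, so that a call on 5 of 10 genes lies below the background of this comparison. The groups did not overlap for 6 of the 10 genes, against 73.2% of all tested genes. The median log2 fold change of the 10 genes was -0.19, beside -0.02 for all tested genes.

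**Figure D1:**
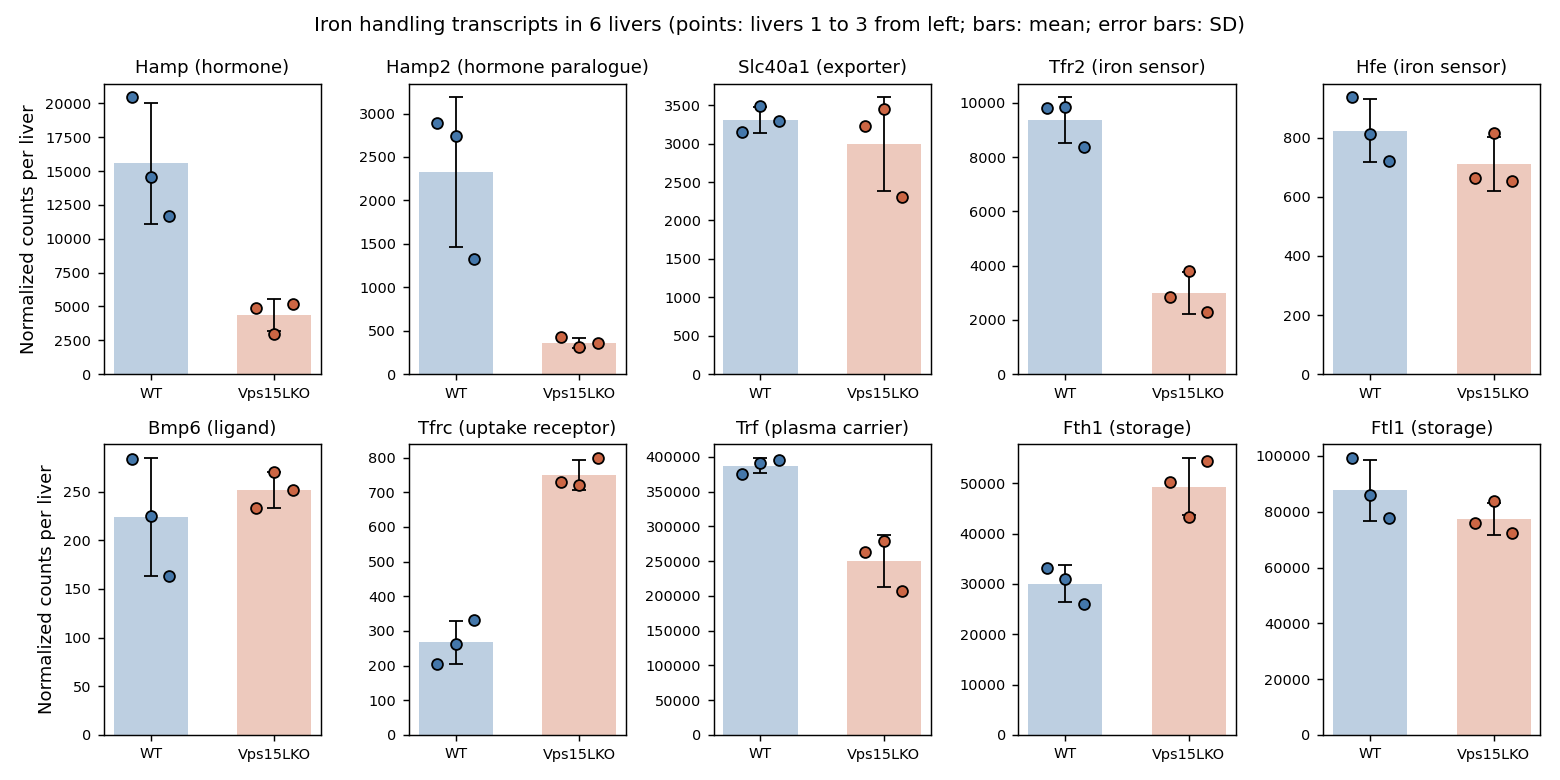
Normalized counts of the 10 iron handling genes (vertical axes, each from 0) in the 3 WT and 3 Vps15LKO livers; points are livers, bars are means and error bars are SD (n = 3). The Vps15LKO points lie below all WT points for Hamp, Hamp2, Tfr2 and Trf, and above them for Tfrc and Fth1, while the groups overlap for Slc40a1, Hfe, Bmp6 and Ftl1.

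Both hepcidin transcripts fell in Vps15LKO livers, Hamp to 3.58-fold and Hamp2 to 6.41-fold lower levels. Hamp, the iron hormone, was read at 20433, 14591 and 11656 normalized counts in WT livers 1 to 3 and at 4872, 2979 and 5197 in Vps15LKO livers 1 to 3. The highest Vps15LKO liver thus stayed below the lowest WT liver, although the WT livers themselves spread widely. The log2 fold change of Hamp was -1.84 (SE 0.26, limma adjusted p = 0.000294), and it was -1.12 under total-read scaling. Hamp2, the second mouse hepcidin gene, whose product is not known to act on iron in the way that hepcidin does, was read at 2892, 2744 and 1328 normalized counts in WT and at 423, 308 and 356 in Vps15LKO livers. WT liver 3 was the low one of its group and still lay 3-fold or more above each Vps15LKO liver. The log2 fold change of Hamp2 was -2.61 (SE 0.28, limma adjusted p = 6.16e-05), and -1.88 under total-read scaling. Hamp and Hamp2 were called lower under all 17 alternatives tried, with log2 fold changes of -2.03 to -1.59 and of -2.97 to -2.41 when single livers were left out. Under quantile normalization Hamp was at -0.93 (limma adjusted p = 0.0234) and Hamp2 at -2.44. Hepatocyte markers were lower in the same livers by a median log2 fold change of -1.88, and in bulk tissue fewer cells of a type and less RNA per cell cannot be told apart.

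The ratio of Hamp2 to Hamp was lower in Vps15LKO livers, by a narrow margin between the nearest livers of the groups. The log2 ratio of Hamp2 to Hamp was -2.82, -2.41 and -3.13 in WT and -3.52, -3.27 and -3.87 in Vps15LKO livers. The groups did not overlap, and the mean difference was -0.77 (exact permutation test, two-sided, p = 0.1, adjusted p = 0.1 over 5 ratios), which is the smallest p that 3 against 3 livers allow. This ratio rests on reads that can be told apart: the annotated Hamp and Hamp2 transcripts were 94.6% identical over 410 aligned bases, with a longest shared run of 87 bases, and how reads matching both genes were counted is not given in the sources used here. Hamp2 also shares 89 exonic bases with Gm44662 on the other strand, which itself averaged 1742 normalized counts in the WT and 282 in the Vps15LKO group, so that part of the Hamp2 count may be shared with it.

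Ferroportin, the only known cellular iron exporter and the target of hepcidin, was not called. Slc40a1 (chr1:45908068-45926523, minus strand) was read at 3148, 3489 and 3294 normalized counts in WT and at 3224, 3449 and 2299 in Vps15LKO livers. The 2 groups overlapped, with Vps15LKO liver 3 alone on the low side. The log2 fold change was -0.17 (95% CI -0.52 to 0.18, limma adjusted p = 0.359), and it turned to 0.56 and was called higher under total-read scaling.

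The 2 transferrin receptors moved in opposite directions. Tfr2 (chr5:137569840-137587481, plus strand), the hepatocyte receptor that senses iron-loaded transferrin and promotes hepcidin expression, was read at 9827, 9860 and 8381 normalized counts in WT and at 2858, 3802 and 2280 in Vps15LKO livers. Tfr2 fell 3.14-fold, by a log2 fold change of -1.68 (SE 0.18, limma adjusted p = 6.85e-05), and by -0.95 under total-read scaling and -0.98 under quantile normalization. The groups were far apart, and all 17 alternatives called it lower.

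Tfrc (chr16:32608920-32632794, plus strand) encodes transferrin receptor 1, which takes up iron-loaded transferrin in most cells, and it carried the 4 hairpin matches printed above. It was read at 206, 264 and 332 normalized counts in WT and at 731, 721 and 799 in Vps15LKO livers. The Vps15LKO livers were close to each other and all lay above the highest WT liver. Tfrc rose 2.81-fold, a log2 fold change of 1.51 (SE 0.16, limma adjusted p = 6.7e-05), and 2.24 under total-read scaling, with a call under all 17 alternatives. The log2 ratio of Tfrc to Tfr2 within a liver, which no factor applied to a whole library can change, was -5.57, -5.22 and -4.66 in WT and -1.97, -2.40 and -1.51 in Vps15LKO livers. It differed by 3.19 between the means without overlap (exact permutation p = 0.1, adjusted p = 0.1).

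Trf (chr9:103204001-103230444, minus strand) encodes transferrin, the plasma carrier of iron that hepatocytes secrete. It shares 2108 exonic bases with Gm20425 on the same strand, a gene with no row in the table used here. It was read at 375560, 390900 and 395650 normalized counts in WT and at 263210, 278240 and 207100 in Vps15LKO livers. Every Vps15LKO liver lay below every WT liver, and the mean was 1.55-fold lower. With a log2 fold change of -0.65 and an SE of 0.58 it was not called by limma (adjusted p = 0.352), whose variance is fitted to the level of expression. DESeq2 (log2 fold change -0.61, adjusted p = 2e-05) and limma voom (-0.60, adjusted p = 0.0203) called it lower, and edgeR did not (adjusted p = 0.0642). As a share of all reads on genes Trf made up 1.59% to 1.82% in WT and 1.62% to 1.92% in Vps15LKO livers, and its log2 fold change under total-read scaling was 0.08.

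The ferritin chains differed from each other. Fth1 (chr19:9980598-9985098, plus strand) encodes the heavy chain, which oxidizes iron for storage, and was read at 33179, 31049 and 26027 normalized counts in WT and at 50270, 43316 and 54481 in Vps15LKO livers. The groups did not overlap, and Fth1 rose 1.64-fold, a log2 fold change of 0.72 (SE 0.21, limma adjusted p = 0.0159), which was 1.44 under total-read scaling and 2.08 under quantile normalization. The call was lost, at log2 fold changes of 0.74, 0.61 and 0.70, without WT liver 2, WT liver 3 or Vps15LKO liver 1 (adjusted p = 0.0537, 0.0533 and 0.0765), while the direction held under all 17 alternatives. Ftl1 (chr7:45457944-45459884, minus strand) encodes the light chain, and was read at 99188, 86159 and 77579 normalized counts in WT and at 75891, 83835 and 72480 in Vps15LKO livers. The groups overlapped. The log2 fold change of Ftl1 was -0.17 (95% CI -0.83 to 0.48, limma adjusted p = 0.611), and it turned to 0.55 and was called higher under total-read scaling.

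The heavy chain transcript was higher relative to the light chain transcript in each Vps15LKO liver than in any WT liver. The log2 ratio of Fth1 to Ftl1 was -1.58, -1.47 and -1.58 in WT and -0.59, -0.95 and -0.41 in Vps15LKO livers. The difference of 0.89 was without overlap (exact permutation p = 0.1, adjusted p = 0.1). Counts of the light chain are uncertain where copies share reads: the copy Ftl1-ps1 was 99.6% identical to the Ftl1 transcript over 910 aligned bases. Ftl1-ps1 was listed at 3412, 3003 and 2521 normalized counts in WT and at 2497, 2848 and 2292 in Vps15LKO livers, and was not called either (log2 fold change -0.22, limma adjusted p = 0.177). Ftl2-ps averaged 107 and 83.5 normalized counts in the 2 groups and was not called, and Ftl1-ps2, Fth-ps2, Fth-ps3 and Fthl17a lay below the filter. Within the Ftl1 locus, Gm10252, which shares 355 exonic bases with Ftl1 on the other strand, averaged 36243 and 31781 normalized counts in the 2 groups, and Gm22133, on the same strand, 44909 and 40333.

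HFE and BMP6, which sit upstream of hepcidin, were not called. Hfe (chr13:23702034-23710854, minus strand), the gene of hereditary haemochromatosis, was read at 936, 813 and 723 normalized counts in WT and at 665, 817 and 654 in Vps15LKO livers. The groups overlapped, with a log2 fold change of -0.21 (95% CI -0.51 to 0.09, limma adjusted p = 0.179) that turned to 0.52 and was called higher under total-read scaling. Bmp6 (chr13:38345107-38500302, plus strand), the ligand that reports iron load to hepatocytes, was read at 284, 225 and 163 normalized counts in WT and at 233, 270 and 251 in Vps15LKO livers. The Vps15LKO values lay inside the range of the WT values. Its log2 fold change was 0.20 (95% CI -0.24 to 0.64, limma adjusted p = 0.379), and 0.92 with a call under total-read scaling. Bmp6 shares 224 exonic bases with Txndc5 on the other strand, which averaged 4010 and 2941 normalized counts, so that its low count may hold reads of that gene.

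**Figure D2:**
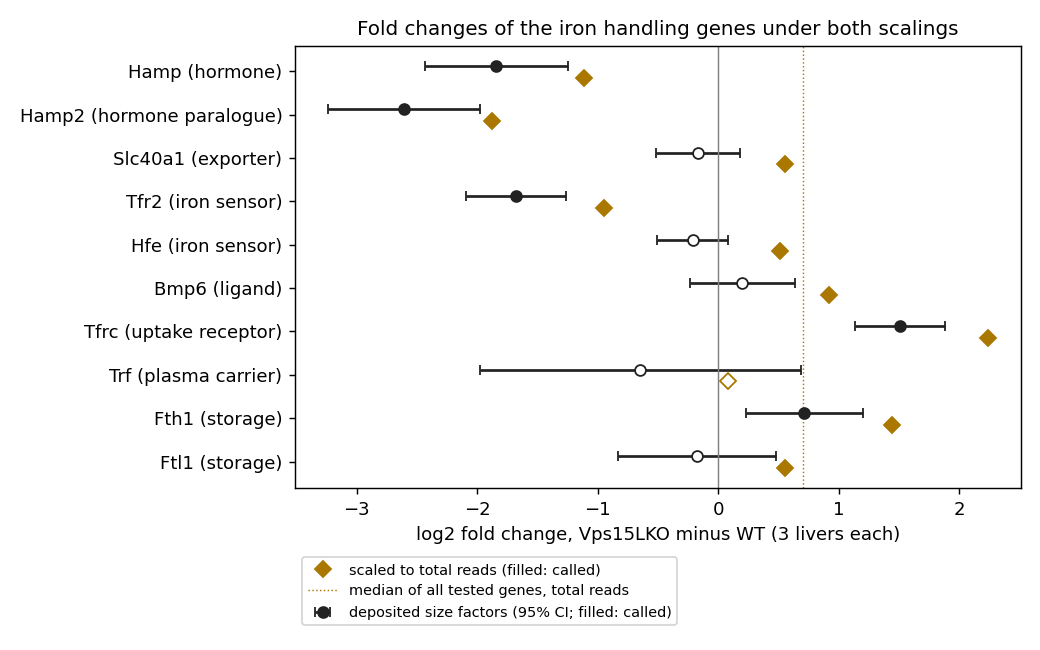
Log2 fold changes of the 10 genes, Vps15LKO minus WT (horizontal axis, 3 livers each), with the deposited size factors (circles, bars 95% CI) and with libraries scaled to total reads (diamonds); filled symbols were called, and the dotted line is the median of all tested genes under total-read scaling. Hamp, Hamp2 and Tfr2 stay left of 0 and Tfrc and Fth1 right of it under both scalings, whereas Slc40a1, Hfe and Ftl1 cross from -0.17, -0.21 and -0.17 to 0.56, 0.52 and 0.55, and Trf, without a call, from -0.65 to 0.08.

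Under total-read scaling 6 of the 10 genes were called higher and 3 lower, beside 66.7% higher and 11.1% lower over all tested genes. The 3 lower genes were Hamp, Hamp2 and Tfr2 under both scalings.

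Levels were compared between genes as normalized counts per kilobase of all annotated exons of a gene, and the order depends on that length. In WT livers the mean order was Trf, Ftl1, Hamp, Fth1, Hamp2, Tfr2, Slc40a1, Hfe, Bmp6 and Tfrc, from 116700 ± 3162 for Trf to 43.2 ± 10.2 for Tfrc (SD, n = 3). Only the last neighbours, Bmp6 at 57.4 ± 15.5 and Tfrc, overlapped over the WT livers. In Vps15LKO livers Fth1 at 14230 ± 1625 stood before Hamp at 10610 ± 2922, Tfr2 at 687 ± 177 before Hamp2 at 621 ± 99.2, and Tfrc at 121 ± 6.81 before Bmp6 at 64.4 ± 4.74. Neighbours overlapped there for Trf and Ftl1, for Fth1 and Hamp, and for Tfr2 and Hamp2. Hamp thus stood above Fth1 in each WT liver and below it in each Vps15LKO liver, and Tfrc passed from an overlap with Bmp6 to a level above it in each liver. Per kilobase of its annotated transcript of 929 bases, a choice made after seeing the data, Fth1 was at 28016 to 35715 in WT livers, overlapping Hamp at 28429 to 49837, and at 46626 to 58645 in Vps15LKO livers, above Hamp at 7265 to 12676.

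Around the 10 genes, 70 other genes of iron handling were grouped in 8 lists, of which 64 were tested, 20 were called higher, 22 lower and 22 not called; under total-read scaling 45 were higher and 8 lower. Over all tested genes 66.5% were called, and 66.7% were higher under total-read scaling, so that these counts lie near the background. Their median log2 fold change was 0.004, beside -0.02 for all tested genes.

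Genes that control hepcidin through BMP and SMAD proteins were called in both directions, 3 higher and 5 lower of 14 tested, with a median log2 fold change of 0.06. Under total-read scaling 10 were called higher and 2 lower, with a median of 0.79. Over all tested genes 33.5% were called higher and 33% lower, and 66.7% and 11.1% under total-read scaling. Tmprss6, the hepatocyte protease that restrains hepcidin by cleaving hemojuvelin, was lower at a mean of 4006 normalized counts against 11105 in WT (log2 fold change -1.49, -0.77 under total-read scaling). Furin, a protease that processes the hepcidin precursor and hemojuvelin, was lower by a log2 fold change of -1.10, and -0.37 under total-read scaling. Bmp2, the endothelial ligand that acts beside BMP6, was read at 689, 690 and 632 normalized counts in WT and at 403, 364 and 252 in Vps15LKO livers. Its groups stood apart and its mean was 1.97-fold lower (limma adjusted p = 0.000709), but under total-read scaling the log2 fold change was -0.28 and not called. Hjv, the BMP co-receptor hemojuvelin, was called lower at a log2 fold change of -0.34 (limma adjusted p = 0.0249) and called higher, at 0.38, under total-read scaling; its call was lost without WT liver 1, WT liver 3, Vps15LKO liver 1 or Vps15LKO liver 3. Fstl3, an inhibitor of activins, rose from a mean of 9.59 to 119 normalized counts (3.43) and Bmp4, a BMP ligand, from 72.8 to 122 (0.73), both named after their values were seen. Neo1, which binds hemojuvelin, was called higher at 0.27, a call that was lost without WT liver 3 and without any 1 of the Vps15LKO livers. The log2 ratio of Bmp6 to Bmp2 within a liver was -1.28, -1.61 and -1.95 in WT and -0.79, -0.43 and -0.01 in Vps15LKO livers, a difference of 1.204 without overlap (exact permutation p = 0.1, adjusted p = 0.1).

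Of 7 target genes of BMP signalling, 5 were called higher and 1 lower, beside 33.5% and 33% of all tested genes, with a median log2 fold change of 0.67. Under total-read scaling 6 were called higher and 0 lower, and the median was 1.39, beside 0.70 for all tested genes. Id1, which shares SMAD control with hepcidin, was read at 155, 89.9 and 82.2 normalized counts in WT and at 399, 268 and 450 in Vps15LKO livers. Every Vps15LKO liver lay above every WT liver, and Id1 rose 3.41-fold (log2 fold change 1.79, limma adjusted p = 0.000425). Bambi rose by a log2 fold change of 1.27, Id3 by 0.69 and the inhibitory Smad7 by 0.50, the last of which was not called without Vps15LKO liver 3. Atoh8, a transcription factor gene of the same list, was lower at -0.74, and at -0.01 without a call under total-read scaling. The log2 ratio of Hamp to Id1 within a liver was 7.03, 7.33 and 7.13 in WT and 3.61, 3.47 and 3.53 in Vps15LKO livers. The difference of -3.63 stood beside SDs of 0.15 and 0.07 within the groups, and its exact permutation p was again 0.1 (adjusted p = 0.1). Id1 is expressed by other liver cells as well as hepatocytes, and which cells held its reads was not measured.

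**Figure D3:**
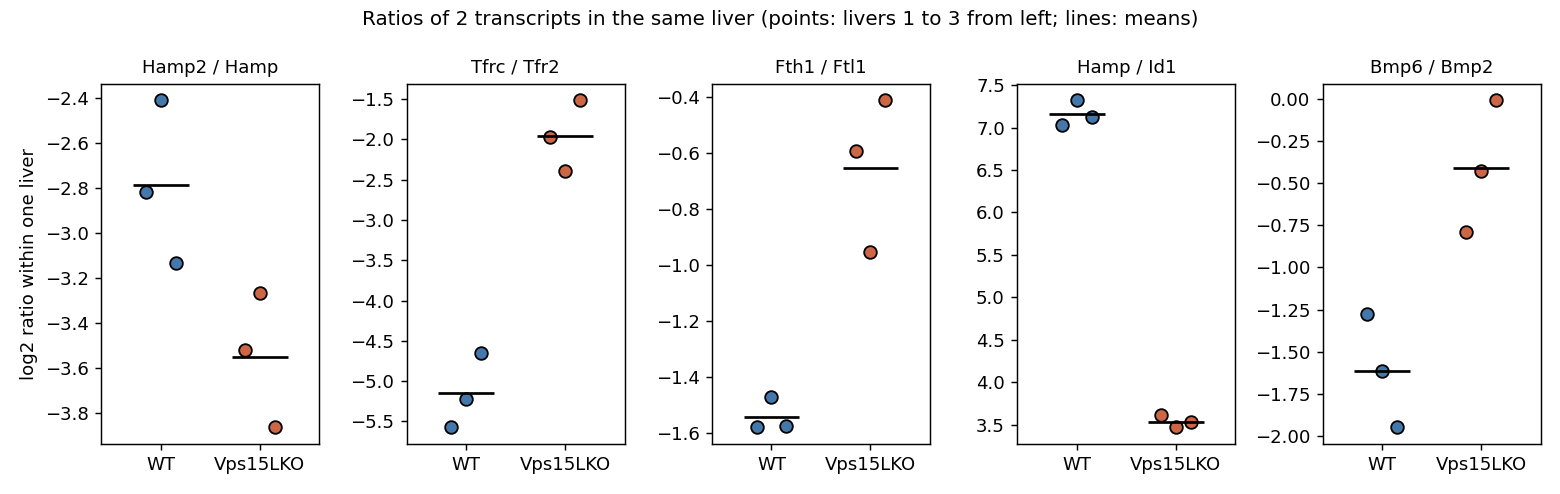
Log2 ratio of 2 transcripts within the same liver (vertical axes, which do not start at 0) in 3 WT and 3 Vps15LKO livers; points are livers and lines are means. In each of the 5 panels the groups do not overlap: Vps15LKO livers lie lower for Hamp2 to Hamp and Hamp to Id1 and higher for Tfrc to Tfr2, Fth1 to Ftl1 and Bmp6 to Bmp2.

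Of 8 tested genes in the list of hepcidin control by IL-6 and STAT3, 2 were called higher and 2 lower, with a median log2 fold change of 0.09. Under total-read scaling 6 were higher and 2 lower, at a median of 0.82. Over all tested genes the shares were 33.5% and 33%, and 66.7% and 11.1% under total-read scaling. Il6ra, the IL-6 receptor, was lower at a mean of 435 normalized counts against 1322 in WT (log2 fold change -1.59), and Cebpa, a liver transcription factor on which Hamp expression depends, was lower at 4532 against 17095 (-1.94); both stayed lower under total-read scaling, at -0.87 and -1.22. Inhbb, which encodes the subunit of activin B, rose from a mean of 18.2 to 238 normalized counts (3.81), and Jak2 was higher at 0.43, a call that was lost without Vps15LKO liver 1. Il6 itself, named after its values were seen, did not exceed 2.43 normalized counts in any liver and was not tested.

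Iron importers, reductases and oxidases were called higher for 5 and lower for 3 of 10 tested genes (median log2 fold change 0.16). Under total-read scaling 8 were called higher and 1 lower (median 0.89). Over all tested genes the shares were 33.5% and 33%, and 66.7% and 11.1% under total-read scaling. Slc11a1, the divalent metal transporter of macrophage phagosomes, rose 5.07-fold (log2 fold change 2.35), Steap2, a metalloreductase, 2.72-fold (1.45), and Slc11a2, the importer DMT1, 1.38-fold (0.47). Slc39a14, through which hepatocytes take up iron that is not bound to transferrin, was lower at a mean of 1429 normalized counts against 3265 (-1.19), and at -0.46 with a call under total-read scaling. Slc39a8, its close relative, was lower at -0.81 but at -0.09 without a call under total-read scaling, and Mcoln1, a lysosomal channel that releases iron, passed from -0.36 to 0.37. Cp, the plasma ferroxidase ceruloplasmin, was not called, with means of 27296 and 25599 normalized counts (log2 fold change -0.10, and 0.63 with a call under total-read scaling).

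Of the 7 genes for iron regulatory proteins, iron chaperones and ferritin turnover, limma called 0 higher, and at an unadjusted p under 0.05 or by edgeR, DESeq2 or limma voom the number higher was also 0; 3 were called lower, beside 33.5% higher and 33% lower over all tested genes. Under total-read scaling 4 were called higher and 2 lower, beside 66.7% and 11.1%, and the median log2 fold change passed from -0.23 to 0.50. Both iron regulatory proteins, which bind the hairpins printed above, were lower: Ireb2 averaged 721 normalized counts against 1557 in WT (log2 fold change -1.11, and -0.38 under total-read scaling) and Aco1 2026 against 4270 (-1.08, and -0.36). Ncoa4, the receptor that delivers ferritin to autophagy, a process that needs class 3 PI3K, was lower at 858 against 1205 (-0.50), but at 0.23 without a call under total-read scaling. Fbxl5, which marks IREB2 for degradation when iron is sufficient, was not called (-0.17, and 0.55 with a call under total-read scaling).

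Of 7 haem and haemoglobin salvage genes limma called 3 higher and 2 lower, beside 33.5% and 33% of all tested genes. Total-read scaling gave 5 higher and 1 lower, beside 66.7% and 11.1% of all tested genes. With 2 lower in each case, edgeR and limma voom called 4 and DESeq2 5 higher. Hmox1, the haem oxygenase that frees iron from haem, was read at 532, 636 and 511 normalized counts in WT and at 1856, 1767 and 1521 in Vps15LKO livers, a 3.06-fold rise (log2 fold change 1.62). Slc48a1, which moves haem out of lysosomes, rose 2.70-fold (1.43). Cd163, the macrophage receptor for haemoglobin bound to haptoglobin, fell 8.37-fold, from a mean of 247 to 29.5 normalized counts (-3.04, and -2.32 under total-read scaling), in livers in which most macrophage markers were higher. Lrp1, the receptor for haem bound to haemopexin, was lower at -0.81, and at -0.09 without a call under total-read scaling.

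Of 9 tested genes for mitochondrial iron, limma called 6 lower and 0 higher, with a median log2 fold change of -0.61, and at an unadjusted p under 0.05 or by edgeR, DESeq2 or limma voom the number higher was also 0; over all tested genes 33% were lower and 33.5% higher. Under total-read scaling 4 were called higher and 0 lower, beside 66.7% and 11.1% of all tested genes, and the median was 0.11, beside 0.70. Glrx5, Iscu and Nfs1, which build iron-sulfur clusters, were at -0.76, -0.70 and -0.69, and at -0.04, 0.03 and 0.04 without a call under total-read scaling. Ftmt, mitochondrial ferritin, was at 0 reads in all 6 livers.

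Both iron-binding protein genes of inflammation were called higher, beside 33.5% of all tested genes. Lcn2, which encodes the protein that withholds bacterial iron carriers, was read at 158, 249 and 506 normalized counts in WT and at 14607, 9360 and 16658 in Vps15LKO livers. It rose 44.6-fold (log2 fold change 5.60, limma adjusted p = 6.93e-06), and the lowest Vps15LKO liver lay far above the highest WT liver. Ltf, named after its values were seen, was called higher at a mean of 35.8 normalized counts against 5.74. It was read at 0, 3.75 and 13.5 in WT livers 1 to 3. Its log2 fold change of 3.15 ran from 2.13 to 4.06 with single livers left out.

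**Figure D4:**
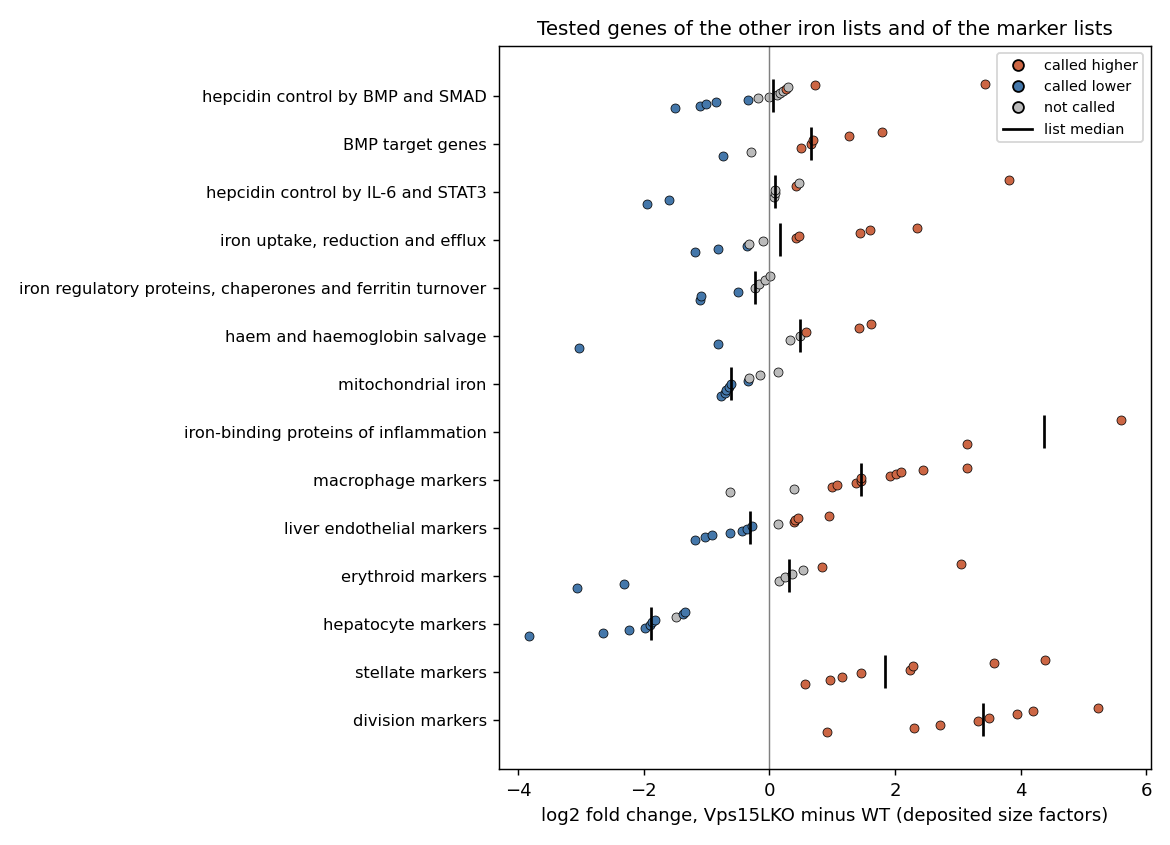
Log2 fold changes, Vps15LKO minus WT with the deposited size factors (horizontal axis), of every tested gene in the 8 other iron lists and the 6 cell marker lists; colours show the call and black lines the list medians. The list medians run from -0.61 for mitochondrial iron genes to 4.37 for the iron-binding genes of inflammation, beside hepatocyte markers at -1.88 and macrophage markers at 1.46.

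The make-up of the tissue differed between the groups, and its values stand beside the results above. Over all tested genes 33.5% were called higher and 33% lower, and 66.7% and 11.1% under total-read scaling. The samples were liver by their markers, with Alb and other hepatocyte genes among the most abundant. By limma, 9 of 10 hepatocyte markers were called lower, with a median log2 fold change of -1.88 (-1.16 under total-read scaling). Alb, at -1.48 (SE 1.38) without overlap, was not called by limma, while edgeR, DESeq2 and limma voom called all 10 lower. The summed level of the markers in normalized counts was 2818000 to 3229000 in the WT and 808400 to 1228000 in the Vps15LKO group. Hamp and Tfr2, at -1.84 and -1.68, thus fell by amounts near the marker median of -1.88, and Hamp2, at -2.61, by more than that median. The single markers ran from -1.35 (Apoa1) to -3.83 (Serpina1c), a range that holds Hamp, Hamp2 and Tfr2. The part of hepatocyte content in the fall of Hamp, Hamp2 and Tfr2 was not tested. Macrophage markers were called higher for 10 of 12, with a median of 1.46 and sums of 10670 to 12380 against 36990 to 41000, stellate markers for 8 of 8, with a median of 1.85 and sums of 3034 to 3828 against 19940 to 24230, and division markers for 8 of 8, with a median of 3.40 and sums of 577 to 812 against 3727 to 4034. The part of these cells in the rise of Tfrc, Fth1, Id1, Hmox1 and Slc11a1 was not tested. Endothelial markers, of the cells that make Bmp6 and Bmp2, were called higher for 4 and lower for 7 of 12 (median -0.31, sums of 11680 to 12850 against 9215 to 11460), a balance that turned to 7 higher and 1 lower, with a median of 0.41, under total-read scaling; edgeR called 4 lower and DESeq2 and limma voom 5. Erythroid markers were called higher for 2 and lower for 2 of 8 tested (median 0.31, sums of 7676 to 10120 against 6801 to 9475), and for 6 and 2 under total-read scaling (median 1.04). No marker in these 6 lists was at 0 in all livers.

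The genes whose values over the 6 livers were most like those of 3 of the genes were found by Pearson's r over the 11248 tested genes that averaged at least 100 normalized counts. Hamp was followed most closely by Ppm1g (r = 0.998), Nrbp2 (0.997) and Bag1 (0.996). Tfrc was followed by Selenoh (0.9996), Armcx4 (0.9995) and Cdca4 (0.9993), and Bmp6 by Syngr2 (0.983), Gm21691 (0.982) and Abtb2 (0.979). These are descriptions of 6 points that share libraries and size factors, and for Hamp and Tfrc the 2 genotypes set most of the likeness.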

How the data were processed

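Total RNA from 6 livers was sequenced on a DNBSEQ instrument, and per the study's methods and the submitters' processing notes the authors mapped the reads to GRCm38/mm10 with HISAT2, counted them with featureCounts and normalized them. The deposited signal values are the authors' gene counts divided by 1 size factor for each library: in every library 100% of the values came out as whole reads (within 0.01 of a read). Settings for strand and for reads with several matches are not given in the sources used here. The members and lists were chosen with earlier results of these data known. Genes were named with GENCODE M21, which held 55141 of the 56305 identifiers.

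Values were tested as log2(normalized count + 1), a scale that understates the change of low genes, in R 4.3.3 by limma 3.58.1, whose eBayes step let the variance follow the mean level. Genes entered where 3 or more of the 6 livers reached 20 normalized counts. Alternatives on the whole reads were DESeq2 1.42.0, edgeR 4.0.16 and limma voom; others were pseudocounts of 0.1 and 10, other filters, TMM, total-read and quantile scaling, a replicate block, and leaving out each liver. Whole-read fits called 10205 (edgeR), 9951 (DESeq2) and 10185 (limma voom) genes, against 10262. Ratios were compared by an exact permutation test over the 6 livers. The scripts were tested on simulated data. Sequences came from RefSeq promoters and GENCODE transcripts, aligned with Biopython 1.88.

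Genes named were the 10 members, Pik3r4, up to 3 called higher and 3 called lower with the largest change in each other list at a mean of at least 100 normalized counts, Hjv, Tmprss6, Bmp2, Id1, Smad7, Ncoa4, Fbxl5, Slc39a14, Cp, Hmox1 and Lcn2 whatever their values, ferritin copies with reads, and the 3 genes most like Hamp, Tfrc and Bmp6. The replicate numbers were not taken as pairs, and whether the samples were paired is not known.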

Additional observations from a re-analysis of the deposited data

How the results depend on the processing

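The scaling between libraries had the widest effect. Under total-read scaling 6 of the 10 genes and 45 of the other iron genes were called higher and 8 of the latter lower, and log2 fold changes reversed for Slc40a1 (0.56), Ftl1 (0.55), Hfe (0.52), Mcoln1 (0.37), Ncoa4 (0.23), Iscu (0.025), Nfs1 (0.039), Hjv (0.38), Fbxl5 (0.55), Cp (0.63), Trf (0.081) and Pik3r4 (0.19). Under quantile normalization 4 of the 10 genes were called higher, Slc40a1 (0.39), Ftl1 (0.98), Trf (0.071), Lrp1 (0.29) and Cp (1.22) reversed, Fth1 was at 2.08 and Hamp at -0.93, and the differences in log2 ratio were -1.51 for Hamp2 to Hamp, 2.51 for Tfrc to Tfr2, 1.10 for Fth1 to Ftl1 and -2.50 for Hamp to Id1. Total-read scaling moves every gene's log2 fold change by about the same amount by its construction; the cause of the quantile shifts was not tested. With single livers left out, 1 to 2 of the 10 genes were called higher, and Fth1 accounts for the change; Slc40a1 ranged from -0.28 to 0.012, turning without Vps15LKO liver 3, and Bmp6 from -0.010 to 0.39, turning without WT liver 3, with no call. Over 44 named genes and 17 alternatives, 705 of 747 values kept their direction and side of the threshold, 19 reversed, and of the rest 20 lost and 3 gained a call. The members called lower numbered 3 under each alternative but DESeq2 and limma voom, where Trf made 4. With the replicate number as a block 10048 of 15430 genes were called, against 10262, and no named gene changed its call; correlations between livers of the same number were -0.01, -0.01 and 0.05, so the numbers were not taken as pairs. At 3 livers a group, the ratios could not reach a permutation p under 0.1.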

Other observations

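Some iron genes that the comparison left aside had values of their own, and all were chosen here after their values were seen. Alas2, which makes the haem precursor in red cell progenitors, was read at 2602, 2723 and 2892 normalized counts in WT and at 276, 358 and 355 in Vps15LKO livers, an 8.30-fold fall (log2 fold change -3.06, limma adjusted p = 4.66e-07, and -2.33 under total-read scaling), while the globin genes Hba-a1, Hba-a2, Hbb-bs and Hbb-bt were not called, at log2 fold changes of 0.16 to 0.54, but were called higher, at 0.88 to 1.26, under total-read scaling. Among other erythroid markers, Klf1 fell 5.29-fold (-2.32), Slc4a1 rose from a mean of 5.70 to 45.1 normalized counts (3.06) and Epor from 24.3 to 44.1 (0.83). Slc4a1 rested on 1, 4 and 8 reads in WT livers, and ran from 2.44 to 3.61 with single livers left out. Scara5, a receptor for ferritin, was read at 74.1 normalized counts in WT liver 3 and at 3.54 to 11.2 in the other 5 livers, and was not tested. Erfe, the erythroid hormone that lowers hepcidin, was at 5.39 to 11.2 normalized counts in WT and at 7.64 to 9.72 in Vps15LKO livers, below the filter. Hpx, which binds free haem, was read at 70012, 62125 and 79962 normalized counts in WT and at 99579, 103030 and 92872 in Vps15LKO livers, without overlap but not called (log2 fold change 0.48, limma adjusted p = 0.166); it was called higher under 5 of 17 alternatives, among them total-read scaling (1.21, adjusted p = 0.000389).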
